A study of Arabidopsis thaliana with 8 samples.

Results

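Nuclear-encoded plastid ribosomal proteins were followed here in the tic40 mutant of Arabidopsis thaliana and in wild type (WT), both of ecotype Columbia 0. The members were the 5 genes AT1G64510 (small-subunit protein S6), AT3G13120 (S10), AT4G01310 (large-subunit protein L5), AT3G54210 (L17) and AT1G29070 (L34), and a probe was taken for a gene only where the platform annotation gave it exactly 1 gene. That left 1 probe per gene, 5 of the 692 single-gene probes among 3439 probes in the table. Total RNA was measured on 8 arrays, 4 of tic40 and 4 of WT, numbered 1 to 4 in each genotype. The labels describe tic40 as a mutant with impaired protein import at the inner chloroplast envelope. They give no tissue, plant age, growth condition, mutant allele or number of plants, so the p-values reflect the scatter among these 8 arrays, and that scatter may be purely technical. TIC40 itself is named by 0 probes of the annotation, and its transcript was not analysed here.

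The plastid ribosome is of the bacterial type, with a small and a large subunit. Its RNAs and some of its proteins are encoded in the plastid genome, and the remaining proteins are encoded in the nucleus, made in the cytosol with a cleavable transit peptide and carried through the TOC and TIC translocons of the envelope. TIC40 is an inner envelope protein with a co-chaperone-like domain that acts late in that import, so the 5 proteins described here are themselves cargo of the import route. The arrays measure their transcripts and not the proteins, and in RNA pooled over many cells fewer cells of a type and less RNA per cell cannot be told apart.

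The WT arrays came in unlike pairs. The median deposited intensity per array was 0.568 to 0.604 in tic40, against 0.354 and 0.361 in WT samples 1 and 2 and 0.559 and 0.564 in WT samples 3 and 4. Quantile normalization, which brings arrays to a common distribution, was run with the zeros included. Zeros were then set to the floor of the array, percentile 1 of its values above 0. That floor was 0.0218 to 0.0311 in tic40, 0.0583 and 0.0665 in WT samples 1 and 2, and 0.0147 and 0.0177 in WT samples 3 and 4. The low ends of the arrays thus still differed. After quantile normalization, WT samples 1 and 2 correlated with WT samples 3 and 4 across probes at 0.707 to 0.722 and with the tic40 arrays at 0.874 to 0.907, while the other WT pair and the tic40 arrays stood at 0.739 to 0.800. Each difference is therefore given after quantile normalization, after centring each array on its median and as deposited, and also against each WT pair. All values are linear intensities in relative units, and levels of different probes are not compared. Differences were fitted over all 3318 probes that were above 0 on at least 1 array with limma, and a probe was called at a Benjamini-Hochberg adjusted p under 0.05.

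Of the 5 genes, the one for S6 was called lower in tic40 after quantile normalization and the other 4 were not called. As a background, 178 of the 3318 tested probes (5.36%) were called lower, 77 (2.32%) higher, and 255 (7.69%) in either direction. As deposited and with median centring, 0 of the 5 genes were called, while limma called 357 probes (10.8%; 311 or 9.37% higher and 46 or 1.39% lower) and 237 probes (7.14%; 78 or 2.35% higher and 159 or 4.79% lower). Of the 5 genes, 1 had an unadjusted p under 0.05 in each of these fits, L5 as deposited and S6 with median centring, where 27.1% and 22.5% of all tested probes did, so that 1 of 5 is no more than the background. After quantile normalization it was likewise 1 of the 5, S6, where 24.2% of all tested probes did. With quantile normalization kept, the S6 call was also lost with the sample number as a block (adjusted p = 0.0655), and so depended on more than the scaling.

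**Figure D1:**
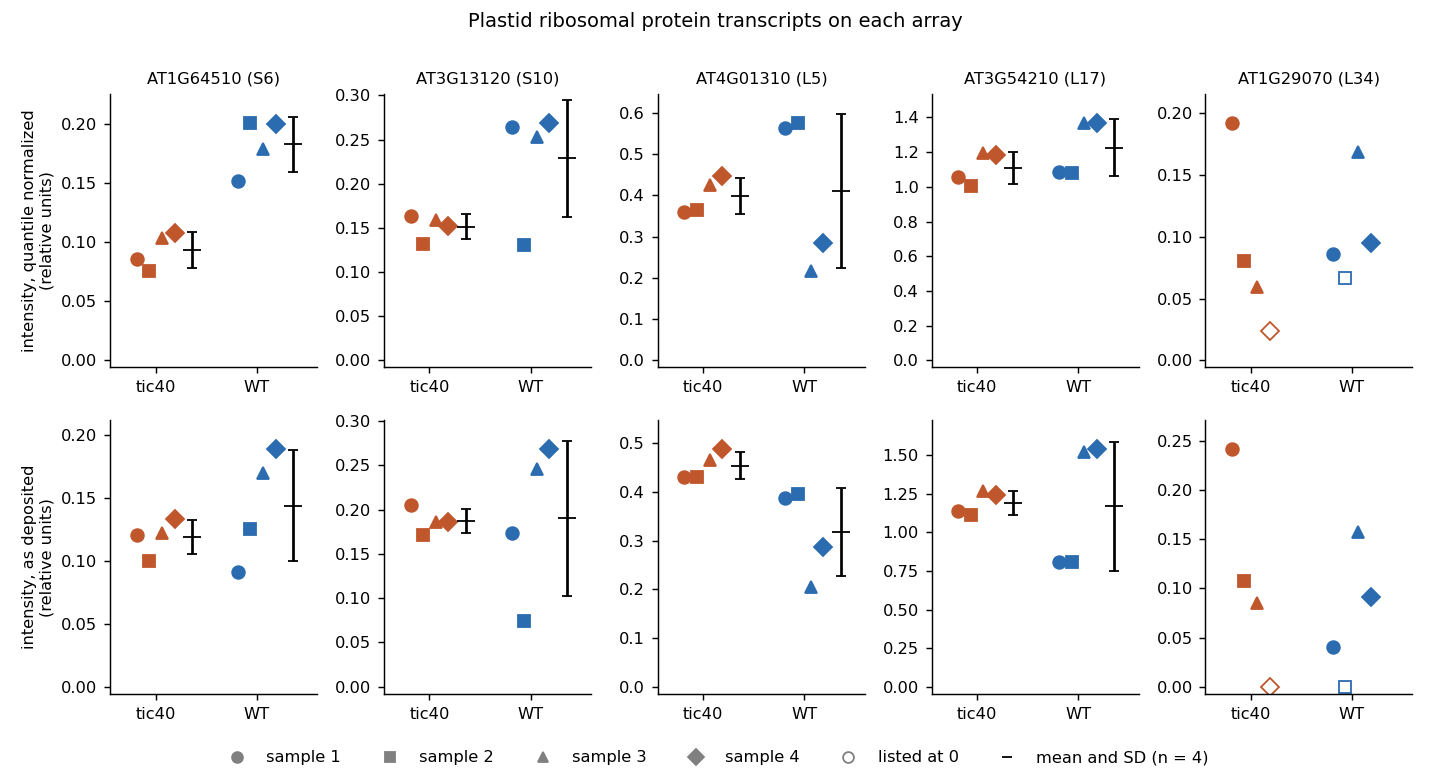
Intensity of each gene on each array (linear axis, relative units), quantile normalized in the upper row and as deposited in the lower row, with tic40 at the left and WT at the right of each panel. Marker shapes give the sample number, black bars the mean and SD of 4 arrays, and open markers values listed at 0, which the upper row draws at the floor of that array; S6 separates the genotypes in the upper row only, while L5 does so in the lower row only.

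In the bacterial ribosome S6 pairs with S18 on the platform of the small subunit. The quantile-normalized intensity of AT1G64510 (S6) was 0.0858, 0.0752, 0.103 and 0.107 in tic40 samples 1 to 4, against 0.151, 0.201, 0.179 and 0.200 in WT samples 1 to 4. All 4 tic40 arrays lay below all 4 WT arrays, a separation in the lower direction that 13.5% of the tested probes showed. The mean was 0.0929 ± 0.0151 in tic40 and 0.183 ± 0.0233 in WT (SD, n = 4 each). The log2 difference, tic40 minus WT, was -0.98 (SE 0.17, 95% interval -1.38 to -0.58, limma adjusted p = 0.0209), which is a 1.97-fold lower level in tic40. The exact two-sided permutation test over the 8 arrays gave p = 0.0286, the smallest that 4 against 4 arrays allow. Those splits ignore the pairing by number. An exact two-sided test by sign changes within the 4 pairs, chosen after seeing the data, gave p = 0.125, the smallest it allows, and the limma fit with the replicate block did not call S6 (adjusted p = 0.0655).

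The separation of S6 was narrower with median centring and absent from the deposited values. As deposited, AT1G64510 stood at 0.121, 0.1001, 0.122 and 0.133 in tic40, against 0.0911, 0.125, 0.170 and 0.189 in WT. WT sample 1 was then below every tic40 array and WT samples 3 and 4 were above all of them. The deposited log2 difference was -0.23 (SE 0.26, limma adjusted p = 0.655), and the exact permutation p was 0.429. Median centring gave 0.104, 0.0851, 0.112 and 0.121 in tic40, against 0.127, 0.174, 0.156 and 0.172 in WT. These groups did not overlap (12% of the tested probes were separated in that direction), with a log2 difference of -0.58 (SE 0.17, limma adjusted p = 0.0935) and the same smallest exact permutation p of 0.0286. Quantile normalization had multiplied the deposited S6 value by 0.710 to 0.849 in tic40, but by 1.66 and 1.60 in WT samples 1 and 2 and by 1.05 and 1.06 in WT samples 3 and 4. The floor of an array is percentile 1 of its values above 0. Over that floor, the quantile-normalized log2 value of S6 was 1.71, 1.27, 2.25 and 2.20 in tic40 samples 1 to 4. In WT samples 1 to 4 it was 1.37, 1.59, 3.33 and 3.76, so the genotypes overlapped on that measure. As deposited, S6 lay 1.38 to 1.79 over the floor in tic40 and 2.66 to 3.27 in WT.

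After quantile normalization the direction of S6 was the same against either WT pair, but as deposited it was not. The deposited mean of the 4 tic40 arrays, 0.119, lay above that of WT samples 1 and 2 (0.108) and below that of WT samples 3 and 4 (0.180). On the quantile-normalized scale, against WT samples 1 and 2 only, the 4 tic40 arrays differed by -0.92 (limma adjusted p = 0.0209, with 15.1% of tested probes called lower in that fit), and against WT samples 3 and 4 only by -0.97 (adjusted p = 0.00383, with 30.8% called lower). By sample number, tic40 minus WT was -0.82, -1.42, -0.79 and -0.90 for numbers 1 to 4, and as deposited 0.41, -0.32, -0.48 and -0.50. The fit with the replicate block called 0.151% of the tested probes. The call was also lost when any 1 tic40 array was left out (adjusted p of 0.0678, 0.0692, 0.0548 and 0.0516 without tic40 samples 1 to 4), where only 40 to 48 of all probes were called.

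**Figure D2:**
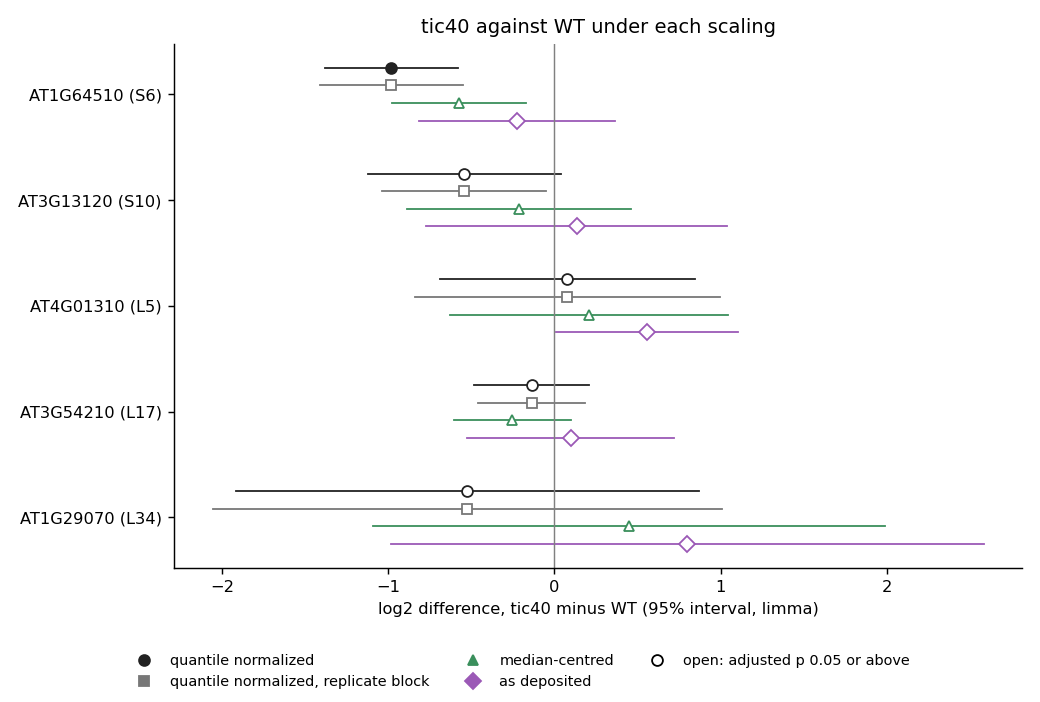
Fitted log2 difference of each gene, tic40 minus WT, with its 95% limma interval, under quantile normalization, the same with a replicate block, median centring and the deposited values. Filled markers passed an adjusted p of 0.05; only the S6 difference after quantile normalization (-0.98) is filled.

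S10 belongs to the head of the small subunit in bacteria, where in Escherichia coli it also takes part in transcription antitermination. The quantile-normalized intensity of AT3G13120 (S10) was 0.163, 0.132, 0.159 and 0.152 in tic40, against 0.264, 0.130, 0.252 and 0.269 in WT. WT samples 1, 3 and 4 lay above every tic40 array, and WT sample 2 lay just below the lowest of them. The means were 0.151 ± 0.0140 in tic40 and 0.229 ± 0.0662 in WT (SD, n = 4 each), and the log2 difference of -0.54 did not pass (SE 0.25, 95% interval -1.12 to 0.04, limma adjusted p = 0.228, exact permutation p = 0.143). With the sample number as a block the 95% interval was -1.03 to -0.05 (SE 0.19), and S10 again did not pass (limma adjusted p = 0.164). Its unadjusted limma p in that fit was 0.0362, where 884 of the 3318 tested probes had one under 0.05.

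After quantile normalization, leaving out WT sample 2 changed the S10 result, and of the 8 fits without 1 array only that 1 called S10. No array was left out under the other scalings. Without that array the log2 difference was -0.79 and passed (limma adjusted p = 0.0273, in a fit that called 5.05% of probes lower), and against WT samples 3 and 4 only it was -0.77 (adjusted p = 0.00264, with 30.8% called lower). Within samples 3 and 4 of both genotypes alone it was -0.75 (adjusted p = 0.00522, with 35.6% called lower). Against WT samples 1 and 2 only it was -0.28 (adjusted p = 0.475). As deposited, S10 stood at 0.205, 0.172, 0.186 and 0.186 in tic40, against 0.173, 0.0739, 0.245 and 0.268 in WT. WT samples 3 and 4 then lay above all tic40 arrays and WT sample 2 below all of them, and the log2 difference turned to 0.13 (SE 0.39, limma adjusted p = 0.874). Median centring gave -0.22 (SE 0.29, adjusted p = 0.690).

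L5 holds the 5S ribosomal RNA in the central protuberance of the large subunit. The quantile-normalized intensity of AT4G01310 (L5) was 0.359, 0.364, 0.425 and 0.446 in tic40, against 0.563, 0.576, 0.216 and 0.284 in WT. WT samples 1 and 2 lay above all tic40 arrays and WT samples 3 and 4 lay below all of them. How many of the tested probes showed this order was not counted. The means were therefore close, 0.398 ± 0.0438 in tic40 and 0.410 ± 0.187 in WT (SD, n = 4 each), with a log2 difference of 0.08 (SE 0.33, 95% interval -0.69 to 0.85, limma adjusted p = 0.903, exact permutation p = 0.886).

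The small mean difference of L5 was the balance of opposite differences against the WT pairs. Against WT samples 1 and 2 only, the log2 difference was -0.50 (limma adjusted p = 0.0316, with 15.1% of probes called lower). Against WT samples 3 and 4 only it was 0.67 (adjusted p = 0.0143, with 24.2% called higher). Fitted within samples 1 and 2 of both genotypes alone it was -0.64 (adjusted p = 0.0202, with 15.9% called lower), and within samples 3 and 4 alone 0.83 (adjusted p = 0.0211, with 25.2% called higher). The difference between these fits was not tested. As deposited, L5 stood at 0.430, 0.432, 0.467 and 0.489 in tic40, against 0.388, 0.396, 0.205 and 0.287 in WT, so that all tic40 arrays lay above all WT arrays, as they did for 22.5% of the tested probes. The deposited log2 difference was 0.56 (SE 0.24, unadjusted p = 0.0466 and limma adjusted p = 0.176, exact permutation p = 0.0286), where the median over all tested probes was 0.32. Median centring gave 0.21 (SE 0.36, adjusted p = 0.761), and the groups overlapped again.

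L17 lies in bacteria at the outer face of the large subunit, near the exit of the peptide tunnel. The quantile-normalized intensity of AT3G54210 (L17) was 1.05, 1.01, 1.20 and 1.18 in tic40, against 1.08, 1.08, 1.37 and 1.37 in WT. WT samples 3 and 4 stood above all tic40 arrays, and WT samples 1 and 2 stood among them. The means were 1.11 ± 0.0931 in tic40 and 1.23 ± 0.166 in WT (SD, n = 4 each), and the log2 difference was -0.14 (SE 0.15, 95% interval -0.48 to 0.21, limma adjusted p = 0.597, exact permutation p = 0.286). This interval was the narrowest of the 5 genes after quantile normalization. Its lower end is smaller in size than the difference fitted for S6.

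As deposited, AT3G54210 stood at 1.14, 1.11, 1.27 and 1.24 in tic40, against 0.806, 0.808, 1.52 and 1.54 in WT. The tic40 arrays lay between the WT pairs without overlap with either, a pattern whose share over all tested probes was not counted. The deposited log2 difference was 0.10 (SE 0.27, limma adjusted p = 0.868). Median centring gave -0.25 (SE 0.15, adjusted p = 0.362). Against WT samples 1 and 2 only the quantile-normalized difference was 0.03 (adjusted p = 0.835), and against WT samples 3 and 4 only it was -0.30 (adjusted p = 0.0540). By sample number the quantile-normalized difference was -0.04, -0.10, -0.20 and -0.21 for numbers 1 to 4. The tic40 array was thus the lower at every number, as for S6 but with smaller differences, and the exact sign-change test within pairs gave the same p = 0.125. The share of all tested probes that were lower at every number was not counted, so this pattern has no background.

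L34 is a small basic protein of the large subunit that binds ribosomal RNA. AT1G29070 (L34) was listed at 0 on tic40 sample 4 and on WT sample 2, and it was above 0 on the other 6 arrays. The quantile-normalized intensity was 0.192, 0.0801 and 0.0596 in tic40 samples 1 to 3, against 0.0862, 0.169 and 0.0949 in WT samples 1, 3 and 4. The genotypes overlapped, and tic40 sample 1 gave the highest value of all. With the zeros at the floor of their arrays, percentile 1 of the values above 0 (0.0233 on tic40 sample 4 and 0.0665 on WT sample 2), the log2 difference was -0.52 (SE 0.60, 95% interval -1.92 to 0.87, limma adjusted p = 0.621, exact permutation p = 0.457).

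The sign of the L34 difference was not stable. It was -0.15 with 1 common floor for all arrays (limma adjusted p = 0.939), -0.20 with zeros treated as missing (adjusted p = 0.830), 0.45 with median centring (adjusted p = 0.719) and 0.80 as deposited (adjusted p = 0.583). After quantile normalization it was -0.18 against WT samples 1 and 2 only (adjusted p = 0.878) and -0.81 against WT samples 3 and 4 only (adjusted p = 0.393). As deposited, the values above 0 were 0.242, 0.107 and 0.0848 in tic40 samples 1 to 3, against 0.0402, 0.157 and 0.0912 in WT samples 1, 3 and 4. On sample number 1 the tic40 array was higher, by 1.16 on the log2 scale after quantile normalization, and on number 3 it was lower (-1.50); numbers 2 and 4 rest on a floor. No level or direction can be given for L34 from these arrays beyond that spread.

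**Figure D3:**
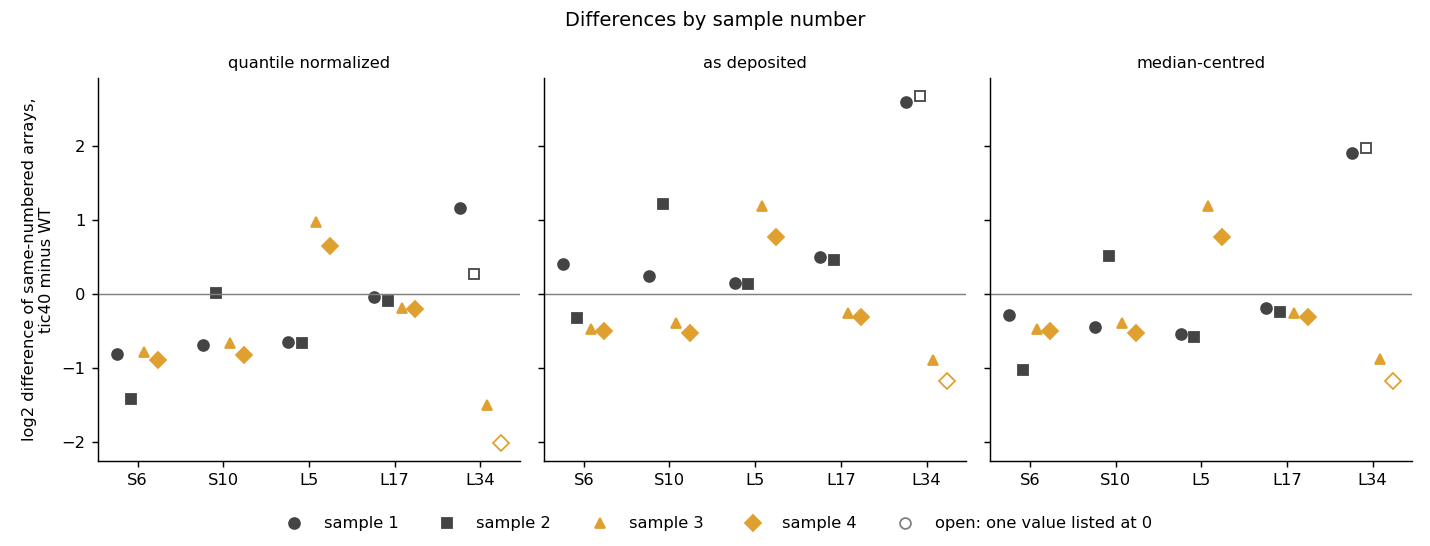
Log2 difference between same-numbered arrays, tic40 minus WT, for each gene under each scaling, with samples 1 and 2 in grey and samples 3 and 4 in yellow; open markers rest on a value listed at 0. S6 and L17 lie below 0 at all 4 numbers after quantile normalization and median centring, and L5 under these scalings lies below 0 at numbers 1 and 2 and above 0 at numbers 3 and 4. The share of all tested probes with such patterns was not counted.

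Side by side, the fitted differences of the 5 genes were of mixed sign after quantile normalization, with median centring and as deposited. Whether the genes differ from each other was not tested. After quantile normalization 4 of the 5 had a log2 difference below 0, where 54.5% of all tested probes did, and their median was -0.52 against -0.06 over all tested probes; that median is the value of L34, and without L34 it was -0.34. As deposited 1 of the 5 was below 0, where 23.7% of the tested probes were, and their median was 0.13 against 0.32. With median centring 3 of the 5 were below 0, where 51.6% of the tested probes were, and the median was -0.22 against -0.02. These counts and medians are descriptions of genes chosen with earlier results known.

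S6 stood lowest of the 5 under each of these scalings. Its difference was below the median of all tested probes by 0.92 after quantile normalization and by 0.55 both as deposited and with median centring. Median centring shifts the differences of all probes by the same amount. It must therefore give the same order and the same distance from the median as the deposited values. The share of tested probes with a still lower difference was 5.61% after quantile normalization and 12.2% under the other scalings. For S10 that share was 16.3% after quantile normalization and 34.7% otherwise, and for L17 it was 44.0% and 31.1%. L5 had 60.3% and 66.1% of the tested probes below it, and L34 had 17.2% and 77.1%, so L34 alone crossed from the lower to the upper side of the distribution.

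**Figure D4:**
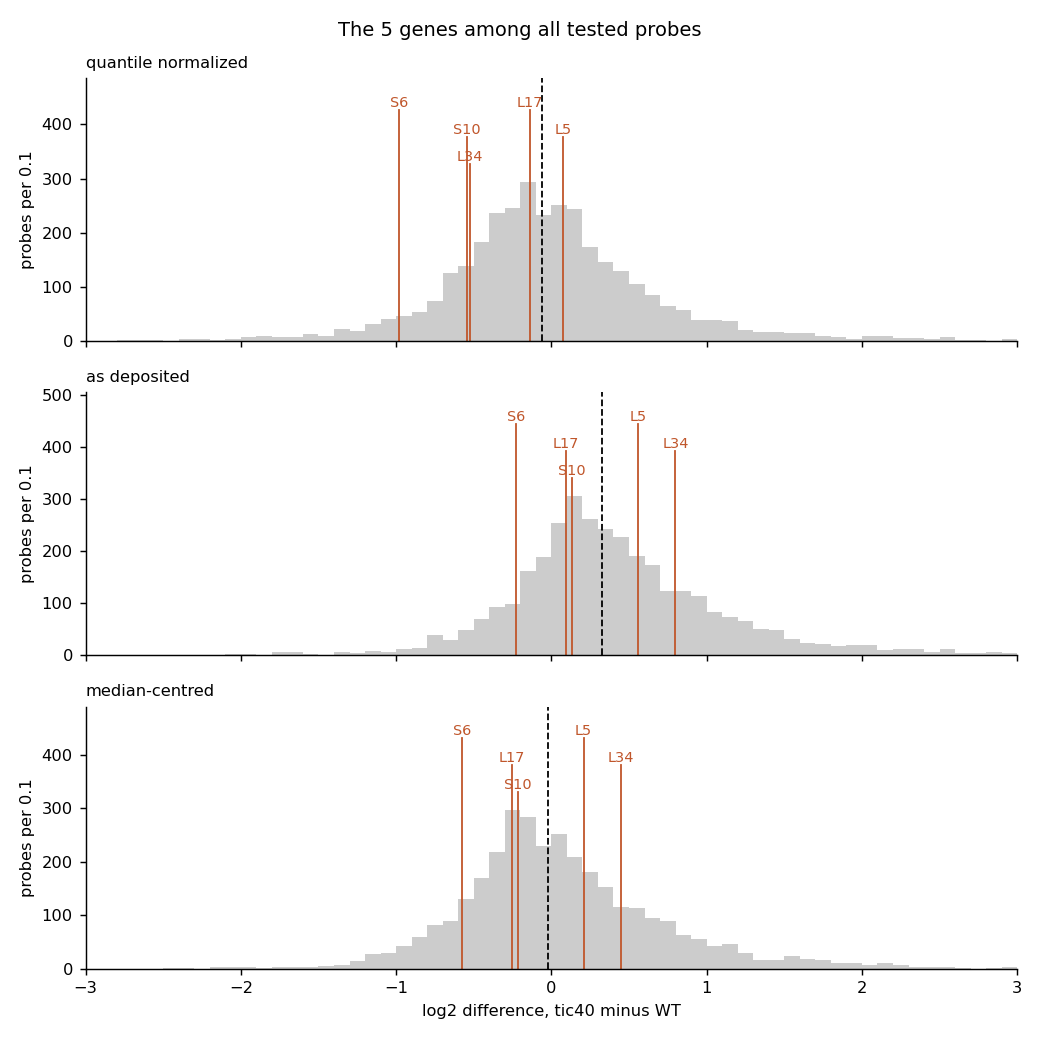
Number of tested probes per 0.1 of log2 difference, tic40 minus WT (grey bars), under each scaling, with the 5 genes marked by lines and the median of all tested probes as a dashed line; probes beyond the axis limits are not drawn. The median moves from -0.06 after quantile normalization to 0.32 as deposited, and S6 stays the lowest of the 5.

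The spread within a genotype was mostly wider in WT. Over 3083 probes with no value listed at 0, the median SD of quantile-normalized log2 values was 0.17 in tic40 and 0.42 in WT, and 80.4% of them varied more in WT. Of the 4 genes without zeros, 3 did too. For S10 the SD was 0.14 in tic40 and 0.51 in WT, for L5 0.16 in tic40 and 0.71 in WT, and for L17 0.12 in tic40 and 0.20 in WT. S6 went the other way, with 0.24 in tic40 and 0.19 in WT, and its WT value lay below the median WT SD of all probes. As deposited the S6 values also varied more in WT, with an SD of 0.17 in tic40 and 0.47 in WT.

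The WT pairs differed in both directions for the 4 genes without zeros. On the quantile-normalized log2 scale, WT samples 1 and 2 minus WT samples 3 and 4 was 1.20 for L5, -0.49 for S10, -0.34 for L17 and -0.12 for S6. The same difference between the tic40 pairs was -0.27 for L5, -0.09 for S10, -0.21 for L17 and -0.39 for S6. Of these 4 genes L5 differed most between the WT pairs, and S6 alone differed more between the tic40 pairs than between the WT pairs. This order did not hold as deposited, where the WT pairs differed by -1.18 for S10, -0.92 for L17, -0.75 for S6 and 0.69 for L5, and the tic40 pairs by -0.21 for S6. With median centring the WT pairs differed by 1.30 for L5, -0.57 for S10, -0.31 for L17 and -0.14 for S6. What sets the WT pairs apart was not tested.

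Other genes of the same machinery gave little to set beside the members. Of 41 nuclear genes listed for the plastid ribosome, single-gene probes covered the 5 members and AT5G65220, listed for L29, which sits at the tunnel exit of the large subunit. AT5G65220 was listed at 0 on all 8 arrays, so it was not tested and has no value in either genotype. Of 13 plastid translation factors and 7 plastid ribosome assembly factors, 0 had a single-gene probe; 4 and 1 probes with several genes touch those lists and are not named. A search of the gene table for names with the words ribosomal protein found 67 genes, 0 of them with a single-gene probe. That search also found 0 of the 5 members, so it cannot show whether other ribosomal proteins have a single-gene probe. Cytosolic and mitochondrial ribosomal proteins are not compared here.

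The genes most like each member over the 8 quantile-normalized arrays were ranked among the other 611 single-gene probes above 0 on all arrays, by Pearson's r of the log2 values. Since the arrays fall into clusters (tic40 and the WT pairs), a high r can come from the differences between those clusters, and r is a description with no test. For S6 the closest were AT1G09200 (r = 0.980), AT1G62250 (r = 0.973) and AT3G46950 (r = 0.966). All 3 were called lower in tic40, with log2 differences of -1.45 (limma adjusted p = 0.00832), -0.66 (adjusted p = 0.0384) and -0.90 (adjusted p = 0.0223), which their likeness to a called gene favours. With the replicate block none of the 3 was called (adjusted p = 0.0527, 0.0769 and 0.0612).

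The patterns most like the other members carried no call. For S10 the closest were AT1G07850 (r = 0.963), AT2G15440 (r = 0.941) and AT2G23070 (r = 0.904). For L5 they were AT5G49800 (r = 0.977), AT3G44050 (r = 0.962) and AT3G02690 (r = 0.960), and for L17 AT2G24810 (r = 0.984), AT5G39410 (r = 0.962) and AT1G79080 (r = 0.959). Adjusted p-values of these 9 genes in limma lay between 0.319 and 0.972. None of the 5 ribosomal protein genes was among the closest of another. Between the members themselves, S10 correlated at 0.654 with L17, and S6 at 0.557 with S10 and 0.599 with L17 but at -0.08 with L5. L5 correlated at -0.44 with S10 and at -0.67 with L17.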

How the data were processed

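RNA was measured on 8 arrays (4 tic40, 4 WT), with groups and numbers from the sample titles. The deposited values are linear intensities on a relative scale, judged from the values (never negative, means of 1.03 to 1.12 per array). The authors' scanner, background correction and scaling were not stated in the labels. Of 3439 probes, 692 carried 1 gene in the platform annotation, 870 several and 1877 none, and the TAIR10.1 gene table held 690 of the 692. That table gave names only, and coordinates are left out since no build is named for the probes.

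Quantile normalization (limma 3.58.1 in R 4.3.3) was chosen because the array medians spanned 0.72 on the log2 scale. Zeros were then set to percentile 1 of the values above 0 on that array, and 121 probes listed at 0 throughout were dropped. The log2 values of 3318 probes were fitted with lmFit and eBayes, with genotype as the only term, two-sided, with Benjamini-Hochberg adjustment. The fit was tested on simulated data with independent noise on each array and the same spread in both genotypes. Those data held no WT pairs and no pairing by number, so they cannot show how the fit does where these are present. Exact permutation tests over the 70 splits of the arrays were run per member. Arrays have no depth, and their number limits the precision.

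Deviations of same-numbered tic40 and WT samples from their genotype means correlated across probes at 0.306, 0.310, 0.261 and 0.254. As each exceeds 0.1, the numbers count as pairing, although no label states a shared batch. The fit with the number as a block called 5 probes, 4 higher and 1 lower.

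The members, the gene lists and the tests were chosen with earlier results of these data known. The rule for named genes was all 5 members, the 3 single-gene probes most like each member without zeros, and every listed gene with a single-gene probe. Alternatives covered the block, the scaling, the value for zeros, the filter, the variance model and the arrays used. Cyclic loess, the fits against 1 WT pair and the sign-change test within pairs were chosen after seeing the data.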

Additional observations from a re-analysis of the deposited data

Results flagged for a closer look

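WT sample 2 stood apart from the other WT arrays for AT3G13120 (S10). Its gap to the nearest other WT array took up 0.911 of the whole WT range on the quantile-normalized log2 scale, above Dixon's 95% critical value for 4 samples, with WT values of 0.264, 0.130, 0.252 and 0.269. In all 10 sets of 4 arrays (5 genes in 2 genotypes) were looked at, and chance marks about 1 in 20.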

How the results depend on the processing

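All values here are log2 differences, tic40 minus WT, with limma adjusted p. The S6 difference kept its sign under all 22 alternatives but not its call. For a gene without zeros, the block, zero settings, filters, variance model and averaged pairs cannot change the fitted difference, so its sign there is no evidence. Subsets of arrays were fitted after quantile normalization only. As deposited, the S6 mean of tic40 (0.119) lay above that of WT samples 1 and 2 (0.108). The S6 difference was -0.98 (adjusted p = 0.0655) with the replicate block, -0.23 (adjusted p = 0.655) as deposited and -0.58 (adjusted p = 0.0935) with median centring. It was -0.59 (adjusted p = 0.120) with cyclic loess and -0.98 (adjusted p = 0.863) with samples 1 and 2, and 3 and 4, averaged, a fit with fewer samples. Over all its alternatives the adjusted p of S6 ran from 0.00383 to 0.863. As deposited S10 was 0.13, L17 0.10 and L34 0.80. L34 was 0.45 with median centring and 0.28 with cyclic loess. In samples 1 and 2 alone L5 was -0.64 (adjusted p = 0.0202) and L34 0.78. In samples 3 and 4 alone S10 was -0.75 (adjusted p = 0.00522) and L5 0.83 (adjusted p = 0.0211). Against WT samples 1 and 2 only L5 was -0.50 and L17 0.0335, and against WT samples 3 and 4 only S10 was -0.77 and L5 0.67. The causes were not tested. Leaving out 1 array at a time gave -1.07 to -0.90 for S6, with 4 of 8 fits calling it, -0.79 to -0.44 for S10, -0.18 to 0.28 for L5 (-0.18 and -0.06 without WT samples 3 and 4 in turn), -0.19 to -0.08 for L17 and -1.04 to -0.01 for L34. The 2 zero settings, the 2 filters and the variance model changed no call and no sign; L34 has no value where probes had to be above 0 on all arrays.

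The number of called probes was 255. It was 5 with the replicate block, 965 and 2001 in samples 1 and 2 and in samples 3 and 4 alone, and 152 with cyclic loess. It was 969 and 1815 against WT samples 1 and 2 and WT samples 3 and 4 only. Without 1 array at a time it was 40 to 242 (40, 43, 47 and 48 without tic40 samples 1 to 4, 126 and 125 without WT samples 3 and 4). The replicate block ended the S6 call, the only call among the 5 genes. In that fit the limma adjusted p was 0.164 for S10, 0.902 for L5, 0.505 for L17 and 0.592 for L34. With the pairs averaged limma called 0 probes, while 184 had an unadjusted p under 0.05. In the fits within a pair of numbers, the error is that between 2 like arrays of a genotype. S6 lay 1.27 to 3.76 above the floor of its array on the quantile-normalized log2 scale, with the genotypes overlapping on that measure. The table gives no background flag.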
